A study of Mus musculus with 12 samples.

Results

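The voltage-gated sodium and calcium channel genes were taken from the striatal RNA-seq table by symbol: the sodium channel α subunits (Scn, a number and a) and β subunits (Scn, a number and b), the calcium channel pore-forming α1 subunits (Cacna1 and a letter), the α2δ subunits (Cacna2d1 to Cacna2d4) and the β subunits (Cacnb1 to Cacnb4). The rule gave 31 of 52169 gene symbols, with 324 of 189660 transcripts. Each gene is described by its transcript with the highest mean level. There were 9 sodium channel α, 4 sodium channel β, 10 calcium channel α1, 4 α2δ and 4 calcium channel β genes. Scn2a1, the symbol under which this annotation holds a major brain sodium channel, has a different form and is given below with the partner genes.

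Hemiparkinsonian female C57BL/6J mice had received 6-OHDA, a toxin of dopamine neurons, into the medial forebrain bundle of the right hemisphere (1 µl at 3 µg/µl), with desipramine (25 mg/kg) to spare noradrenergic neurons. After 2 weeks of recovery they were given L-DOPA (10 mg/kg) with benserazide (7.5 mg/kg), either once (acute) or daily for 9 days (chronic), and were killed 1 hour after the last injection. RNA from punches of the lesioned (right) and the unlesioned (left) striatum was sequenced, with 3 libraries in each of the 4 groups. All animals carried the lesion and all received L-DOPA, so the unlesioned striatum is the control side of a treated animal, and no group without L-DOPA was analysed here.

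Voltage-gated sodium channels open on depolarization and carry the upstroke of the action potential. Their α subunit forms the pore, and β subunits change its gating and its anchoring in the membrane. Voltage-gated calcium channels turn depolarization into calcium entry, which drives transmitter release, dendritic signals and transcription in response to activity. The α1 subunit forms their pore, and the intracellular β subunit and the extracellular α2δ subunit carry the channel to the membrane and set its density there. Some of the α2δ proteins, but not all, are binding sites of gabapentin and pregabalin. Striatal spiny projection neurons express the L-type pores Cacna1c and Cacna1d and a prominent sodium channel β4 subunit (Scn4b).

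Levels are library-scaled counts (CPM), scaled by TMM over the 12 libraries, and per kilobase of transcript where genes are compared with each other. By that measure, averaged over the 12 libraries, the sodium channel β gene Scn4b led. Scn4b stood at 75.8 CPM per kb and Scn2b at 16.3. The α2δ gene Cacna2d3 followed with 13.7 CPM per kb, ahead of Cacnb1 (11.3), Cacnb3 (11.2) and the sodium channel β gene Scn3b (7.30). Among the pores that the symbol rule takes, Scn8a, the sodium channel of the axon initial segment, was the highest at 3.71 CPM per kb, while the pore Scn2a1, which the rule leaves out, stood at 4.20, and Scn1a (2.39) and Scn3a (1.34) were lower. The calcium pores were led by the T-type genes Cacna1h (2.96) and Cacna1i (2.66), then the P/Q-type Cacna1a (2.14), the R-type Cacna1e (1.90) and the N-type Cacna1b (1.56). The L-type genes Cacna1c (1.19) and Cacna1d (0.738) lay below them. Most neighbours in this order were not separated. The libraries' ranges did not overlap between Scn4b and Scn2b, between Cacna1c and Cacna1d, between Cacna1d and Cacna1g, and between Cacna1g and Cacna2d4.

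**Figure D1:**
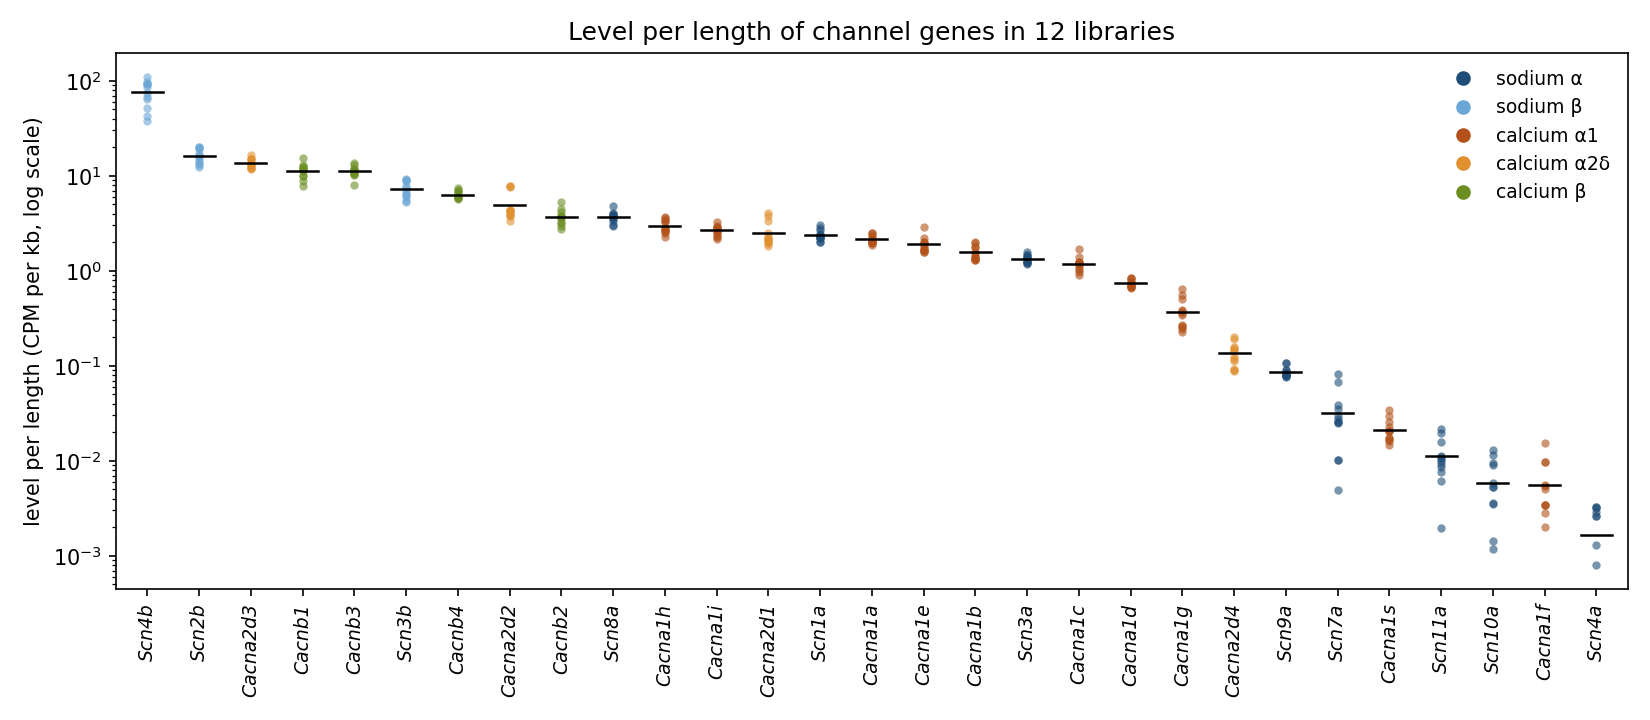
Level per length (CPM per kb of transcript, log scale) of the channel genes named here, ordered by their mean over 12 libraries. Each point is a library, a line marks the mean, colours mark the subunit family, and libraries with a count of 0 cannot be drawn on this axis. Scn4b leads at 75.8 CPM per kb, and the genes to the right of Scn9a rest on few counts.

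The genes known from muscle, retina and sensory neurons were close to absent. Scn4a, the skeletal muscle sodium channel, had 0 to 3 counts in every library. Scn10a, of sensory neurons, and Cacna1f, the retinal L-type pore, each had 0 to 9 counts. A count of 0 allows up to 3 counts, which is 0.0171 to 0.0347 CPM depending on the library and covers counting error only. These 3 genes did not pass the filter on low counts in any comparison, and Scn11a (2 to 14 counts) passed it only in the chronic comparison and in the test of the difference of the lesion effects. So 27 members were tested in the acute, lesioned and unlesioned comparisons and 28 in the others. Cacna1s, the skeletal muscle L-type pore, and Scn7a, an atypical sodium channel of glia and sensory ganglia, were tested on 9 to 28 and 4 to 65 counts per library.

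The libraries held 87695043 to 173116525 counts on named transcripts, in which a read counts on every transcript it overlaps. Markers of spiny projection neurons (8 genes) summed to 1681 to 2507 CPM in all libraries, and none of them was at the floor. Markers of choroid plexus summed to 477 CPM in replicate 2 of the chronically treated unlesioned striatum and to 3.68 to 11.6 CPM in the other 11 libraries, so that library stands apart. Markers of cortical glutamatergic neurons, which lie in the cortex above the striatum, were uneven. They summed to 34.8, 17.4 and 17.2 CPM in the unlesioned and 21.6, 8.23 and 8.28 CPM in the lesioned striata after acute L-DOPA, and to 27.8, 10.9 and 45.7 CPM and 26.5, 7.90 and 6.44 CPM after chronic L-DOPA. Of the 8 cortical markers, Neurod1 was at the floor of 3 counts in all lesioned libraries after acute L-DOPA. In tissue RNA, fewer cells of a type and less RNA per cell cannot be told apart.

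After acute L-DOPA, 9 channel genes were lower on the lesioned than on the unlesioned side and none was higher, of 27 tested (edgeR quasi-likelihood test, Benjamini-Hochberg adjusted p under 0.05 over all transcripts). The 9 were the sodium channel genes Scn3a, Scn8a, Scn3b and Scn4b and the calcium channel genes Cacna1c, Cacna1i, Cacna2d3, Cacnb1 and Cacnb2. Over all genes tested, 7.16% were called lower and 8.16% higher in this comparison, against 33.3% of the channel genes called lower. Among the higher ones, 2 had an unadjusted p under 0.05, and DESeq2 called 1. The members' median log2 change was -0.12, against 0.015 for all genes. Markers of spiny neurons moved in the same direction, with 5 of 8 called lower (sums of 2118 to 2507 CPM in the unlesioned and 1886 to 2035 CPM in the lesioned striata). Lists of single cell types moved in both directions, with 5 of 6 D1 markers (direct pathway) called lower and 1 higher, a median of -1.1. Of the 6 D2 markers (indirect pathway) 5 were called higher and 1 lower, a median of 0.48, with sums of 519 to 611 CPM in the unlesioned and 880.5 to 954 CPM in the lesioned striata. Astrocyte markers had 3 higher and 0 lower of 6. Markers of cortical glutamatergic neurons had 1 higher and 1 lower of 7, with a median of -1.35 and overlapping sums of 17.2 to 34.8 CPM in the unlesioned and 8.23 to 21.6 CPM in the lesioned striata, and 7 members were called with their score as a covariate. The part of the other cell types in the falls was not tested. With the replicate number as a block, which pairs the striata of equal number, 14 members were called, 11 lower and 3 higher, and in a fit over all 12 libraries 5 were called, all lower. With the trends with GC content and length removed, 10 were called lower and Cacna1d higher.

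After chronic L-DOPA the picture was mixed, with 4 members higher and 3 lower of 28 tested. Cacna1g, Cacna2d1 and Cacna2d2 were among those higher in the lesioned striatum, and Scn1a, Scn3b and Scn4b were lower. Over all genes tested, 8.46% were called higher and 5.20% lower, against 14.3% and 10.7% of the members, and the median log2 change was -0.085 for the members and -0.015 for all genes. The replicate block gave 13 calls, 5 higher and 8 lower, and 17 after the trends with GC content and length had also been removed. Without the library with the high choroid plexus sum, 10 members were called, 5 higher and 5 lower.

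Within the lesioned striatum, 7 members were higher and 2 lower after chronic than after acute L-DOPA, of 27 tested. The higher ones included Scn8a, Cacna1b, Cacna1g, Cacna2d1, Cacna2d2 and Cacnb1, and the lower ones Scn2b and Scn4b. Over all genes, 12.5% were called higher and 13.1% lower in this comparison, against 25.9% and 7.41% of the members, and the median log2 change was 0.14 for the members and -0.024 for all genes. Leaving out replicate 2 of the lesioned chronic libraries, the lowest of its group for 14 of 22 members with at least 1 CPM, gave 14 calls, 12 higher and 2 lower. All 7 oligodendrocyte markers were lower here (sums of 2167 to 3578 CPM after acute and 1197 to 2154 CPM after chronic L-DOPA). D1 markers had 5 higher and 0 lower of 6 (median 1.02), D2 markers 0 higher and 3 lower of 6, microglia markers 0 higher and 4 lower of 6, astrocyte markers 0 higher and 3 lower of 6 and cholinergic interneuron markers 0 higher and 3 lower of 5. The part of these cell types in the differences was not tested. This comparison shares its libraries with both lesion comparisons, so its values are given beside theirs and not as further evidence.

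The difference of the lesion effects, chronic minus acute, passed the test for 4 of 28 members. It was positive for Cacna2d1, Cacna2d2 and Cacna2d3 and negative for Scn4b, where 3.53% and 1.56% of all genes were called in these directions. Its median was 0.035 over the members and -0.026 over all genes. The replicate block gave 7 calls, with Cacnb1 among those added on the positive and Scn1a on the negative side. Leaving out single libraries left 2 to 4 calls, and those of Cacna2d1 and Cacna2d2 remained in all 12 of these fits.

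**Figure D2:**
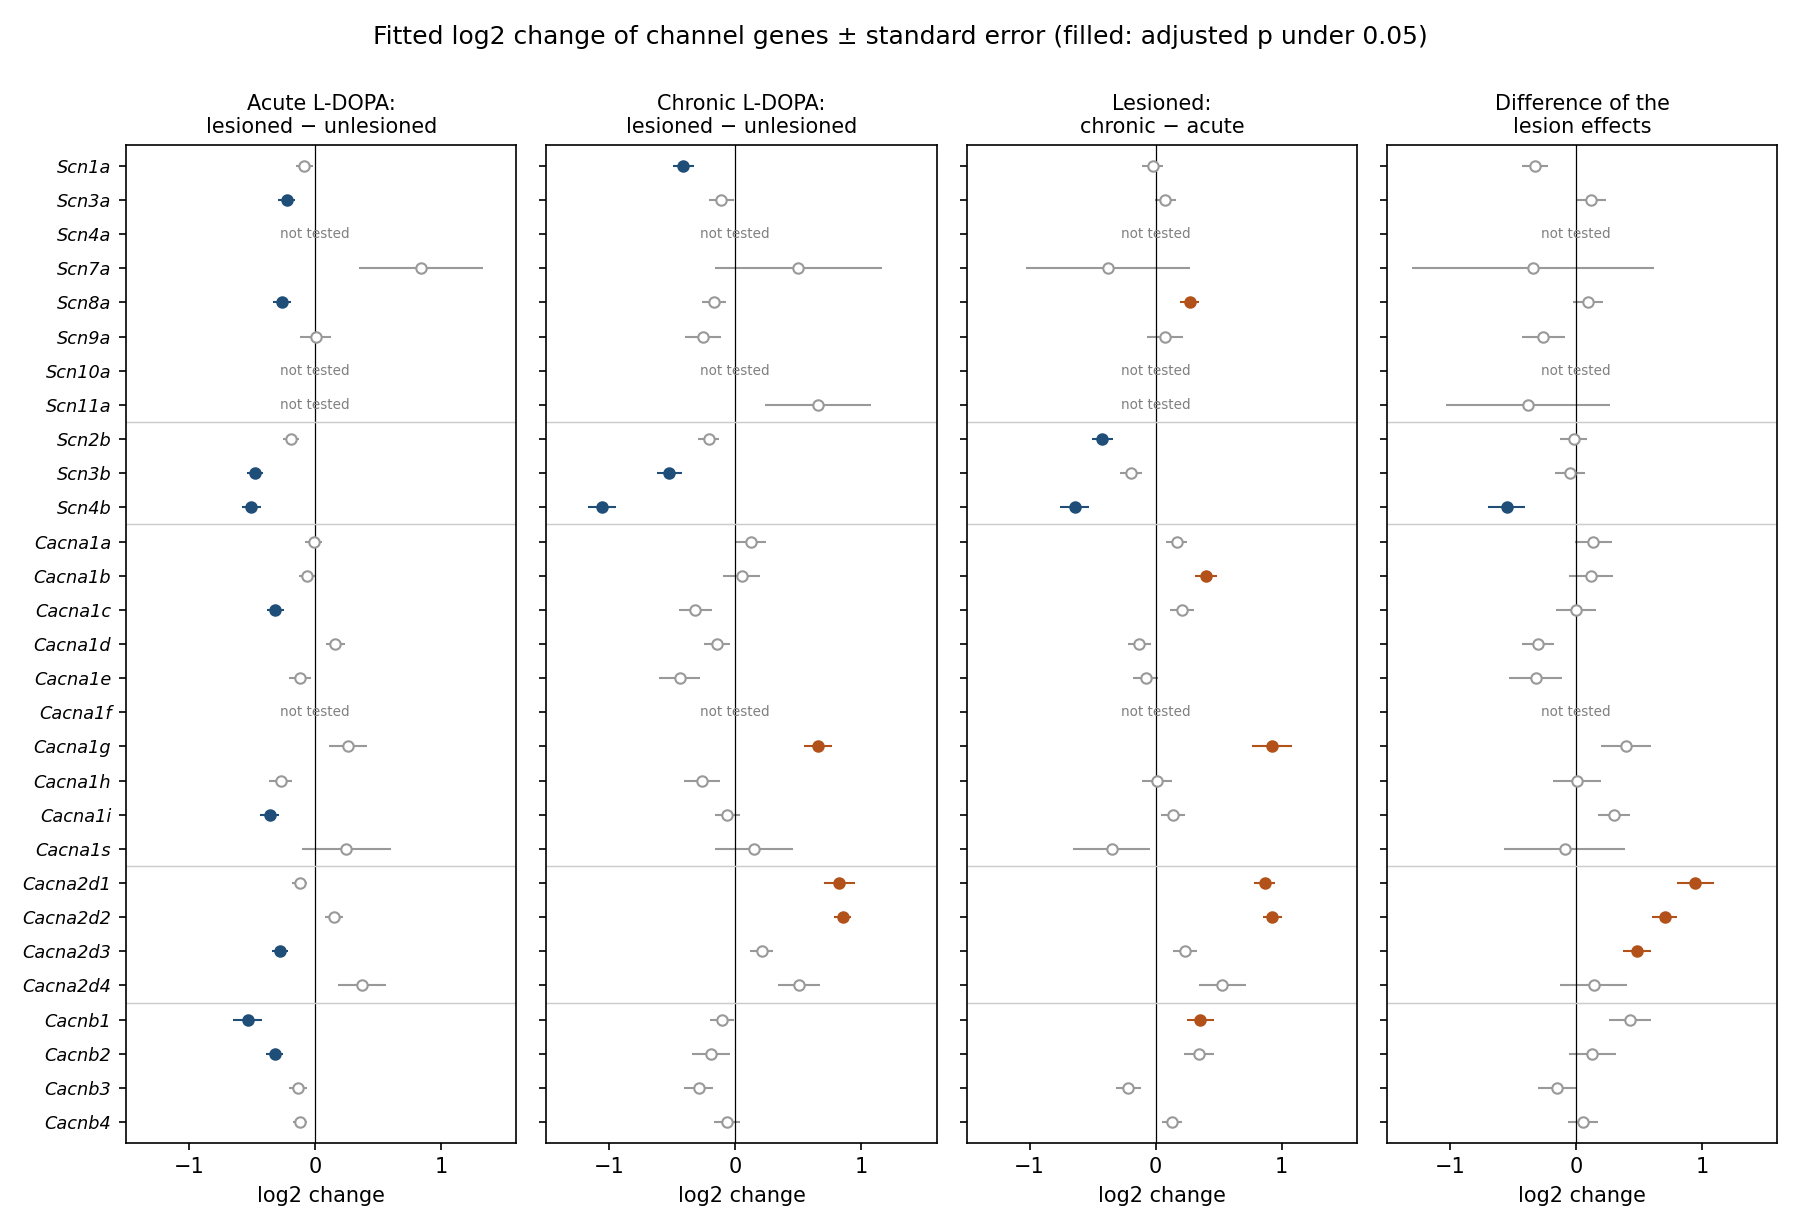
Fitted log2 change of each channel gene named here with its standard error, by subunit family, in 4 comparisons of 3 libraries against 3 or, for the difference of the lesion effects, of all 12 libraries. Filled points passed an adjusted p of 0.05, orange higher and blue lower. All filled points after acute L-DOPA lie left of 0, and Cacna2d1 and Cacna2d2 lie right of 0 in the other 3 panels.

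Of the α2δ genes, Cacna2d1 and Cacna2d2 were higher in the chronically treated lesioned striatum, and Cacna2d3 was lower there after acute L-DOPA. Cacna2d1 was measured at 16.3, 16.8 and 16.5 CPM in the unlesioned and 15.3, 15.9 and 14.4 CPM in the lesioned striata after acute L-DOPA, and 14.4, 13.5 and 18.8 CPM and 30.0, 24.9 and 28.0 CPM in the same order after chronic L-DOPA. The 3 lesioned striata after chronic L-DOPA lay above all 9 other libraries, and after acute L-DOPA the 3 lesioned striata lay below the 3 unlesioned ones. After chronic L-DOPA Cacna2d1 was 1.77-fold higher in the lesioned striatum, a log2 change of 0.83 ± 0.12 (adjusted p = 0.00177), and 1.82-fold higher than in the acutely treated lesioned striatum (0.86 ± 0.086, adjusted p = 8.33e-05). After acute L-DOPA the change was -0.12 ± 0.059 (adjusted p = 0.207). The lesion effects differed by 0.95 ± 0.15 (adjusted p = 0.00143), with 0.86 to 1.11 when single libraries were left out. Of its 16 transcripts tested, 13 were called higher after chronic L-DOPA and none lower, and transcripts of a gene share reads.

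Cacna2d2, the α2δ subunit known from the ducky mouse mutants with ataxia and absence seizures, was measured at 18.6, 21.3 and 21.5 CPM in the unlesioned and 21.0, 22.8 and 24.1 CPM in the lesioned striata after acute L-DOPA, and 23.7, 23.9 and 23.9 CPM and 42.8, 43.6 and 42.6 CPM in the same order after chronic L-DOPA. The lesioned chronic libraries were again above all others, and the 3 of them spanned 42.6 to 43.6 CPM. After chronic L-DOPA Cacna2d2 was 1.81-fold higher in the lesioned striatum, with a log2 change of 0.85 ± 0.070 (adjusted p = 2.57e-05). Against the acutely treated lesioned striatum it was 1.90-fold higher (0.93 ± 0.076, adjusted p = 2.14e-05). The acute lesion effect was 0.15 ± 0.074 (adjusted p = 0.204). It passed the test only in fits with the replicate block, alone (0.15, adjusted p = 0.0478) or with GC and length trends removed as well. The difference of the lesion effects was 0.70 ± 0.10 (adjusted p = 7.20e-04). All 19 of its transcripts were called higher on the lesioned side after chronic than acute treatment. In the annotation used here, 82 bases of its exons overlap Gm17141 on the opposite strand, and whether the counting used strand is not stated.

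Cacna2d3, the most abundant α2δ gene, behaved differently. It was measured at 55.4, 55.2 and 56.2 CPM in the unlesioned and 44.6, 49.3 and 43.5 CPM in the lesioned striata after acute L-DOPA, and 44.4, 48.1 and 47.2 CPM and 50.2, 50.3 and 60.9 CPM in the same order after chronic L-DOPA. After acute L-DOPA it fell in the lesioned striatum, by 17.4% (-0.28 ± 0.061, adjusted p = 0.0127), with no overlap of the libraries. After chronic L-DOPA the lesioned libraries lay above the unlesioned ones, but the change of 0.21 ± 0.093 (adjusted p = 0.189) did not pass the test. It was called higher with the GC and length trends removed and the block (0.22, adjusted p = 0.0235). The lesion effects differed by 0.49 ± 0.11 (adjusted p = 0.0215), a call lost without any of the acute unlesioned libraries, replicates 1 or 3 of the acute lesioned ones or replicate 1 of the chronic unlesioned ones (adjusted p of 0.0117 to 0.0674 over the 12 fits). The unlesioned striatum was itself lower after chronic than after acute L-DOPA by a value that missed the threshold (-0.26 ± 0.064, adjusted p = 0.0596). That fall was called by DESeq2 (adjusted p = 0.0143), without the low-count filter and with GC and length trends removed (adjusted p = 0.0429). It was also called without replicate 2 of the chronic libraries (adjusted p = 0.0154). The lesioned striatum changed by 0.23 ± 0.093 (adjusted p = 0.0945), called in the fit over all 12 libraries (adjusted p = 0.0422) and without replicate 2 of the chronic libraries (adjusted p = 0.0421). Cacna2d4, a subunit of photoreceptor calcium channels, was sparse, at 0.530, 0.511 and 0.682 CPM in the unlesioned and 0.849, 0.821 and 0.540 CPM in the lesioned striata after acute L-DOPA, and 0.718, 0.885 and 0.652 CPM and 1.12, 0.925 and 1.16 CPM in the same order after chronic L-DOPA. Its change after chronic L-DOPA was 0.51 ± 0.17 (adjusted p = 0.0793), and it was called with the replicate block (0.51, adjusted p = 0.0472).

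**Figure D3:**
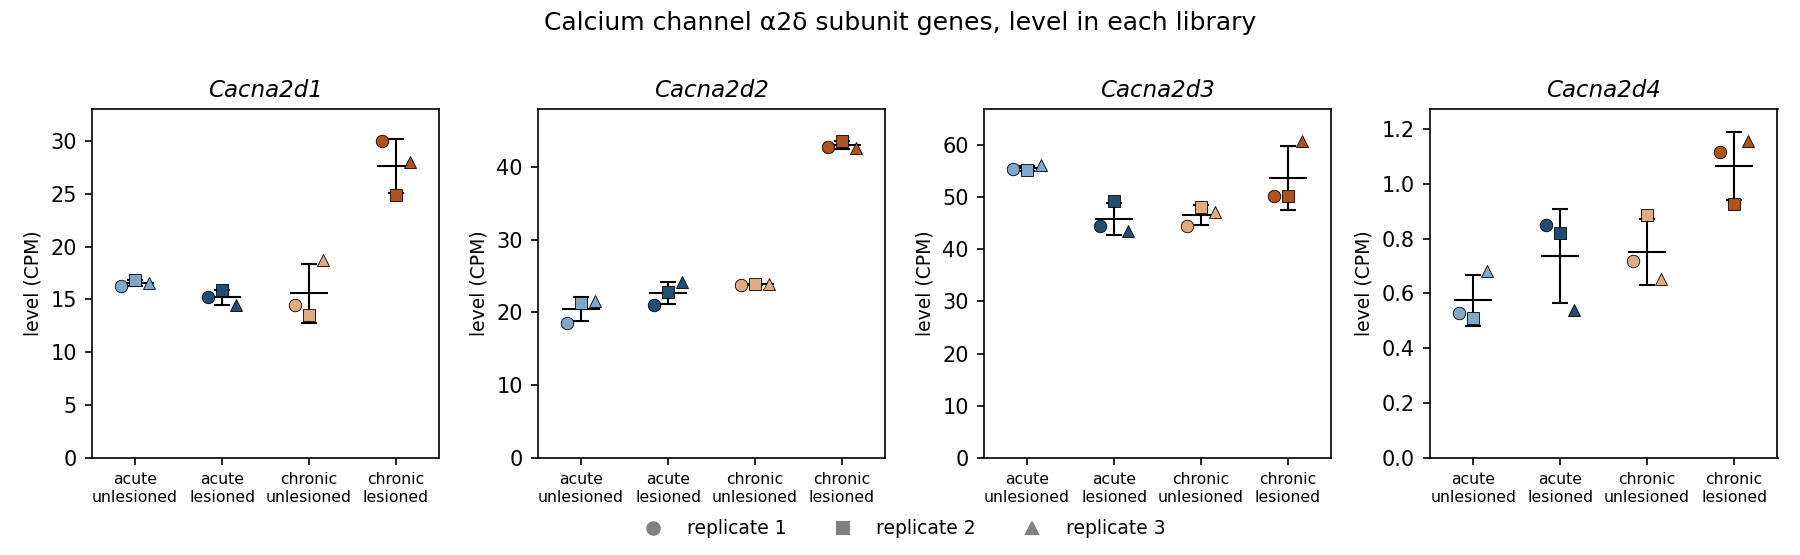
Level (CPM) of the 4 α2δ genes in each library, by group, with the mean and standard deviation of 3 libraries. For Cacna2d1 and Cacna2d2 the 3 lesioned libraries after chronic L-DOPA lie above all 9 others; Cacna2d3 is lower on the lesioned than on the unlesioned side after acute L-DOPA.

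These changes shifted the make-up of the family. Per kilobase, the 4 α2δ genes summed to 21.1 ± 0.410 CPM per kb (SD, n = 3) in the unlesioned and 18.7 ± 0.945 in the acutely treated lesioned striatum, and to 19.1 ± 0.698 and 26.2 ± 1.68 after chronic L-DOPA. Cacna2d3 made up 71.5% ± 1.1 of that sum in the acutely treated unlesioned striatum and 55.4% ± 2.79 in the chronically treated lesioned striatum. The share of Cacna2d2 was 17.5% ± 1.11 and 29.7% ± 2.12 in the same groups, and that of Cacna2d1 was 10.6% ± 0.170 and 14.2% ± 1.39. In the acute lesioned striatum the shares were 66.4% ± 1.43, 21.9% ± 1.75 and 11% ± 0.363 and in the chronic unlesioned striatum 65.9% ± 1.42, 22.5% ± 0.725 and 10.9% ± 1.72 for Cacna2d3, Cacna2d2 and Cacna2d1. The libraries of the chronically treated lesioned striatum overlapped none of the other groups for the share of Cacna2d3, Cacna2d2 or Cacna2d1. Markers of D1 spiny neurons summed to 184 to 199 CPM and 137 to 148 CPM in the unlesioned and lesioned striata after acute and to 179 to 221 CPM and 301 to 352 CPM after chronic L-DOPA. The list was not uniform, since in the chronic comparison Pdyn and Tac1 were called higher and Chrm4, Drd1a and Slc35d3 lower (median -0.17 over 6 markers), while 5 of 6 were called higher in the difference of the lesion effects. Their part in the changes of Cacna2d1 and Cacna2d2 was not tested.

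Cacna2d1 (chr5:15440509-15880329) and Cacna2d2 (chr9:107302211-107431674, both on the plus strand of mm9) moved together after chronic L-DOPA, and Scn4b (chr9:44946520-44962235, plus strand) moved the other way, so the 250 bases before the start of their transcripts are shown, 5′ to 3′ on the strand of the gene. Capitals mark letters searched on both strands that are known as motifs of activity-regulated factors. In Cacna2d1 (chr5:15440259-15440508) these are the EGR motif in its G form, GCGGGGGCG, found at 2 places, and TGACG, the short form of the cAMP response element. In Cacna2d2 (chr9:107301961-107302210) the EGR G form was found at 1 place. In Scn4b (chr9:44946270-44946519) none of the motifs was found.
Cacna2d1: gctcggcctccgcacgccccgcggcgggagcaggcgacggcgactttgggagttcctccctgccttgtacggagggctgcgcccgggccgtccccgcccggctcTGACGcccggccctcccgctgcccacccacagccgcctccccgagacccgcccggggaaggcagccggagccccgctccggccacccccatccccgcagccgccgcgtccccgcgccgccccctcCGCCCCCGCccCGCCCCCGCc
Cacna2d2: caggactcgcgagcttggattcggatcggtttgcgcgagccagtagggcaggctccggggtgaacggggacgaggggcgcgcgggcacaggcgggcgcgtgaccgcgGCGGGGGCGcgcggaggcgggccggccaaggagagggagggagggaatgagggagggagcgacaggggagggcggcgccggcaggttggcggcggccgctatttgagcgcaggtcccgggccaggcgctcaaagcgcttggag
Scn4b: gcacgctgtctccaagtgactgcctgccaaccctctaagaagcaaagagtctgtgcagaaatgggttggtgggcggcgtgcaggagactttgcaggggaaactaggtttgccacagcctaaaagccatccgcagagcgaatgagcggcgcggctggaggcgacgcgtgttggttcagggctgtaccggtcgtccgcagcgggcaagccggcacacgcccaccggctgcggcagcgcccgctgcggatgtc

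The GC content of the 3 windows was 82.4%, 74.4% and 64.0%. Over the 31 members, the EGR G form was in 5 windows, those of Cacna1a, Cacna1b, Cacna1h, Cacna2d1 and Cacna2d2. It was in 4.14% of the 20653 windows of genes tested and in 15.9% of the 2901 with a GC content of 70% or more. The EGR form GCGTGGGCG was in 2 members (0.833% of all windows), the E-box CACGTG in 2 (7.06%) and TGACG in 3 (21.9%). The full cAMP response element TGACGTCA, which contains TGACG, and the AP-1 motif TGACTCA were in none of the 31 windows and in 2.19% and 3.13% of all. A match is a string of letters and says nothing about binding.

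Of the sodium channel β genes, Scn4b and Scn3b fell in the lesioned striatum after both treatments. The product of Scn4b blocks the open channel and supports the resurgent sodium current of fast-firing neurons. Scn4b was measured at 458, 459 and 537 CPM in the unlesioned and 334, 367 and 322 CPM in the lesioned striata after acute L-DOPA, and 477, 458 and 428 CPM and 208, 188 and 258 CPM in the same order after chronic L-DOPA. The lesioned libraries lay below the unlesioned ones after either treatment, and those after chronic L-DOPA were the lowest of all 12. After acute L-DOPA Scn4b was 29.5% lower in the lesioned striatum (-0.50 ± 0.078, adjusted p = 0.00145), and after chronic L-DOPA 52.0% lower (-1.06 ± 0.11, adjusted p = 1.73e-04). Within the lesioned striatum it was 36.0% lower after chronic than after acute L-DOPA (-0.64 ± 0.11, adjusted p = 0.00277), whereas the unlesioned striata differed by -0.094 ± 0.077 (adjusted p = 0.520). The lesion effects differed by -0.55 ± 0.15 (adjusted p = 0.0444), and lost the call in 10 of 12 fits without a single library, all but those without replicate 3 of the acute unlesioned or of the chronic lesioned striata (adjusted p of 0.00557 to 0.122 over the 12 fits). It was also lost with 1 transcript per gene (adjusted p = 0.0540). Spiny neuron markers summed to 2045 to 2202 CPM in the unlesioned and 1681 to 2245 CPM in the lesioned striata after chronic L-DOPA, ranges that overlap, and 1 of those 8 markers was called lower. In the same comparison the D1 markers Chrm4, Drd1a and Slc35d3 were called lower and Pdyn and Tac1 higher, and D2 marker sums were 513 to 549 CPM in the unlesioned and 805 to 1072 CPM in the lesioned striata, with 2 higher and 1 lower of 6. The part of spiny neurons in the fall of Scn4b was not tested.

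The β subunit gene Scn3b fell in both comparisons. It was measured at 38.6, 38.9 and 37.1 CPM in the unlesioned and 25.5, 29.5 and 27.2 CPM in the lesioned striata after acute L-DOPA, and 37.9, 31.6 and 33.5 CPM and 26.4, 22.9 and 22.4 CPM in the same order after chronic L-DOPA. No lesioned library reached the unlesioned ones of its treatment. The changes were -0.48 ± 0.064 (adjusted p = 5.57e-04) after acute and -0.52 ± 0.097 (adjusted p = 0.00596) after chronic L-DOPA, and they differed by -0.044 ± 0.12 (adjusted p = 0.882). All 8 transcripts of Scn3b were called lower in both comparisons.

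Scn2b, which lies next to Scn4b on chromosome 9 with 8366 bases between their transcripts on the same strand, was lower after chronic than after acute L-DOPA. It was measured at 89.4, 90.9 and 91.7 CPM in the unlesioned and 77.6, 86.8 and 73.4 CPM in the lesioned striata after acute L-DOPA, and 63.2, 73.7 and 68.6 CPM and 56.0, 62.0 and 59.5 CPM in the same order after chronic L-DOPA. Chronic libraries lay below acute ones on both sides. Scn2b fell by 25.4% in the lesioned (-0.42 ± 0.083, adjusted p = 0.00504) and by 24.5% in the unlesioned striatum, where the call was kept only without replicate 2 of the chronic libraries (adjusted p of 0.00146 to 0.112 over the 6 fits). The lesion effects were -0.19 ± 0.067 (adjusted p = 0.0853) and -0.21 ± 0.085 (adjusted p = 0.147), both called lower with the replicate block (-0.19, adjusted p = 0.0328 and -0.21, adjusted p = 0.0225).

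**Figure D4:**
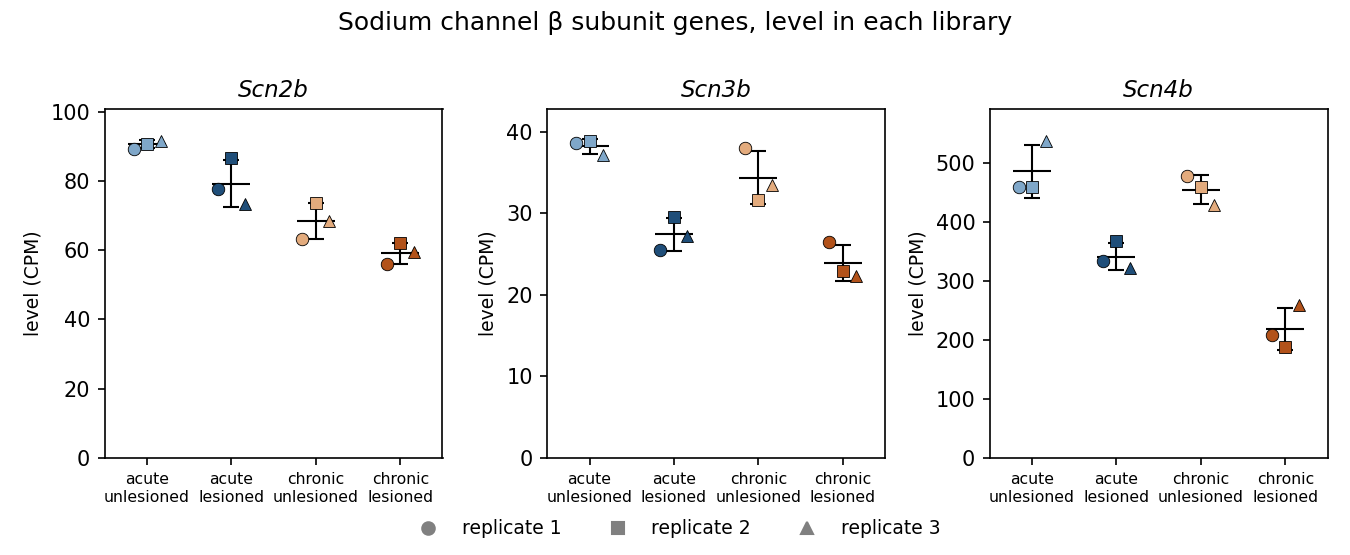
Level (CPM) of the sodium channel β genes Scn2b, Scn3b and Scn4b in each library, by group, with the mean and standard deviation of 3 libraries. Scn4b and Scn3b are lower on the lesioned than on the unlesioned side after both treatments, and Scn2b is lower after chronic than after acute L-DOPA.

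Of the sodium channel pores, Scn1a, the channel of fast-spiking interneurons whose loss causes Dravet syndrome in humans, was measured at 19.4, 19.0 and 20.3 CPM in the unlesioned and 19.9, 18.4 and 16.8 CPM in the lesioned striata after acute L-DOPA, and 22.8, 25.6 and 23.8 CPM and 18.6, 18.7 and 17.0 CPM in the same order after chronic L-DOPA. After chronic L-DOPA it was lower on the lesioned than on the unlesioned side (-0.41 ± 0.081, adjusted p = 0.00820), with no overlap of the libraries, and the unlesioned chronic libraries were the highest of the 4 groups. From acute to chronic treatment the change was -0.023 ± 0.083 (adjusted p = 0.871) on the lesioned side and 0.30 ± 0.068 (adjusted p = 0.0462) on the unlesioned side, a call kept in 1 of the 6 fits without single libraries. After acute L-DOPA the change was -0.084 ± 0.069 (adjusted p = 0.461). The difference of the lesion effects was -0.32 ± 0.10 (adjusted p = 0.0998) and passed the test with the replicate block (-0.32, adjusted p = 0.0385). Markers of interneurons other than cholinergic ones summed to 21.6 to 34.0 CPM in the unlesioned and 16.5 to 24.0 CPM in the lesioned striata after chronic L-DOPA, with 1 of 5 tested called lower (Nos1), and their part in the lower level of Scn1a was not tested.

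Scn8a was measured at 40.9, 39.7 and 45.6 CPM in the unlesioned and 37.5, 34.3 and 33.2 CPM in the lesioned striata after acute L-DOPA, and 44.5, 43.6 and 54.3 CPM and 43.0, 41.6 and 42.0 CPM in the same order after chronic L-DOPA. It was lower in the acutely treated lesioned striatum (-0.26 ± 0.070, adjusted p = 0.0303) and higher on the lesioned side after chronic than acute treatment (0.27 ± 0.075, adjusted p = 0.0241). The acute call was kept only without replicate 2 of the unlesioned or replicate 1 of the lesioned striata (adjusted p of 0.0147 to 0.110 over the 6 fits), and the other only without replicate 1 of the acute or replicate 2 of the chronic ones (adjusted p of 0.0219 to 0.10 over the 6 fits). Scn3a, a pore most abundant in the embryonic brain, was lower after acute L-DOPA (-0.22 ± 0.065, adjusted p = 0.0403), with 14.1, 12.9 and 14.1 CPM in the unlesioned and 12.3, 11.4 and 11.4 CPM in the lesioned striata. That call was kept only without replicate 1 of the lesioned striata (adjusted p of 0.0275 to 0.130 over the 6 fits). The acute calls of Scn3a, Scn8a and Cacna1c were lost with the cortical marker score as a covariate, with changes of -0.15, -0.21 and -0.23 (adjusted p of 0.177, 0.105 and 0.0573). Scn9a and Scn7a were not called in any comparison, with acute changes of 0.0052 ± 0.12 (adjusted p = 0.985) and 0.84 ± 0.49 (adjusted p = 0.286) and chronic changes of -0.26 ± 0.15 (adjusted p = 0.306) and 0.50 ± 0.66 (adjusted p = 0.696). Scn11a, tested after chronic L-DOPA, was at 0.66 ± 0.42 (adjusted p = 0.366).

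The T-type calcium pores open at low voltage and support rebound and burst firing. Cacna1g was measured at 2.16, 1.91 and 2.21 CPM in the unlesioned and 2.06, 2.26 and 3.21 CPM in the lesioned striata after acute L-DOPA, and 2.86, 3.15 and 3.04 CPM and 4.67, 5.36 and 4.23 CPM in the same order after chronic L-DOPA. Its 3 lesioned libraries after chronic L-DOPA lay above all others. After chronic L-DOPA Cacna1g was 1.58-fold higher in the lesioned striatum (0.66 ± 0.11, adjusted p = 0.00310), and 1.90-fold higher than in the acutely treated lesioned striatum (0.92 ± 0.16, adjusted p = 0.00248). It was also 1.44-fold higher on the unlesioned side after chronic than acute treatment, a call kept only without replicate 1 or replicate 2 of the chronic libraries (adjusted p of 0.0110 to 0.116 over the 6 fits). The difference of the lesion effects was 0.40 ± 0.20 (adjusted p = 0.299), with 0.26 to 0.62 when single libraries were left out and a call without replicate 3 of the acute lesioned striata (adjusted p = 0.0422). Cacna1g remained a small part of the T-type pores, with 3.86% ± 0.464 of their summed level per kilobase after acute L-DOPA in the unlesioned and 5.63% ± 1.36 in the lesioned striatum, and 5.75% ± 0.607 and 9.91% ± 2.39 in the same order after chronic L-DOPA.

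Cacna1i, the T-type pore with the slowest kinetics, was measured at 28.1, 28.7 and 31.8 CPM in the unlesioned and 25.2, 22.5 and 21.2 CPM in the lesioned striata after acute L-DOPA, and 24.4, 26.7 and 28.0 CPM and 25.7, 22.3 and 27.8 CPM in the same order after chronic L-DOPA. It fell in the acutely treated lesioned striatum, by 22.0% (-0.36 ± 0.074, adjusted p = 0.00855), and stood at -0.062 ± 0.097 (adjusted p = 0.743) after chronic L-DOPA, and these effects were not shown to differ (0.30 ± 0.13, adjusted p = 0.218). Cacna1h was measured at 22.6, 27.2 and 30.1 CPM in the unlesioned and 20.8, 22.2 and 23.1 CPM in the lesioned striata after acute L-DOPA, and 28.1, 22.4 and 29.5 CPM and 21.2, 18.5 and 26.9 CPM in the same order after chronic L-DOPA. Its lesion effects of -0.27 ± 0.091 (adjusted p = 0.0706) and -0.26 ± 0.14 (adjusted p = 0.278) were called lower with the replicate block (-0.26, adjusted p = 0.00578 and -0.27, adjusted p = 0.0151). With the cortical marker score as a covariate the acute change of Cacna1h was -0.42 (adjusted p = 0.00510). The acute fall was also called by DESeq2 (-0.27, adjusted p = 0.0394), without the low-count filter and with GC and length trends removed (-0.29, adjusted p = 0.0278).

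The L-type pores couple activity to transcription. Cacna1c was measured at 10.1, 9.98 and 10.2 CPM in the unlesioned and 8.81, 8.05 and 7.44 CPM in the lesioned striata after acute L-DOPA, and 11.5, 9.53 and 13.9 CPM and 10.0, 8.44 and 9.60 CPM in the same order after chronic L-DOPA. It was lower in the acutely treated lesioned striatum (-0.31 ± 0.070, adjusted p = 0.0133), a call lost without replicate 2 of the lesioned striata (adjusted p = 0.05004). After chronic L-DOPA its fitted change was of like size, -0.32 ± 0.13 (adjusted p = 0.154), with overlapping libraries, and passed the test with the replicate block (-0.30, adjusted p = 0.0208). Cacna1d stood at 0.16 ± 0.075 (adjusted p = 0.184) after acute and -0.15 ± 0.10 (adjusted p = 0.416) after chronic L-DOPA. Its acute change was called higher with the GC and length trends removed (0.19, adjusted p = 0.0350), and with the block as well (0.19, adjusted p = 0.0208). Cacna1s stood at 0.25 ± 0.35 (adjusted p = 0.688) and 0.15 ± 0.31 (adjusted p = 0.814).

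Of the pores that drive transmitter release, the N-type Cacna1b was measured at 13.0, 13.7 and 14.7 CPM in the unlesioned and 12.8, 13.0 and 13.6 CPM in the lesioned striata after acute L-DOPA, and 17.5, 12.7 and 19.8 CPM and 19.2, 15.4 and 17.3 CPM in the same order after chronic L-DOPA. It was 1.32-fold higher on the lesioned side after chronic than acute treatment (0.40 ± 0.089, adjusted p = 0.00958), with no overlap, while neither lesion effect passed as fitted (-0.066 ± 0.064, adjusted p = 0.541, and 0.051 ± 0.15, adjusted p = 0.869). With the GC and length trends removed and the block, the chronic effect on Cacna1b was called higher (0.17, adjusted p = 0.0457). The P/Q-type Cacna1a was not called in any comparison as fitted, with lesion effects of -0.011 ± 0.070 (adjusted p = 0.942) and 0.13 ± 0.12 (adjusted p = 0.558). It was called higher on the lesioned side after chronic than acute treatment without replicate 2 of the chronic lesioned striata (adjusted p = 0.0399), and after chronic L-DOPA in that same setting (0.17, adjusted p = 0.0337). The R-type Cacna1e was measured at 25.7, 24.2 and 23.1 CPM in the unlesioned and 25.8, 20.1 and 21.0 CPM in the lesioned striata after acute L-DOPA, and 27.8, 21.2 and 37.2 CPM and 22.2, 20.2 and 21.1 CPM in the same order after chronic L-DOPA. The highest value belonged to replicate 3 of the unlesioned chronic libraries, which also had the highest cortical marker sum and was the highest of its group for 14 of 22 members with at least 1 CPM. Cacna1e changed by -0.44 ± 0.16 (adjusted p = 0.114) after chronic L-DOPA, called with the replicate block (-0.41, adjusted p = 0.0210) and by DESeq2 (-0.43, adjusted p = 0.0411). Its leave-one-out values ran from -0.62 to -0.21, with a call without replicate 2 of the unlesioned chronic libraries (adjusted p = 0.00663). The part of cortical tissue in this change was not tested beyond the fit with the cortical score, which gave -0.16 (adjusted p = 0.617).

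Among the β subunits of calcium channels, which carry the pore to the membrane, 2 of 4 fell after acute L-DOPA, where 7.16% of all genes were called lower. Cacnb1 was measured at 37.7, 41.2 and 52.3 CPM in the unlesioned and 26.5, 30.2 and 33.7 CPM in the lesioned striata after acute L-DOPA, and 41.7, 39.0 and 43.8 CPM and 39.1, 33.9 and 42.4 CPM in the same order after chronic L-DOPA. Its lesioned libraries after acute L-DOPA were the lowest, 30.9% below the unlesioned striatum in the fit (-0.53 ± 0.11, adjusted p = 0.00996), and all 12 of its transcripts were called lower. After chronic L-DOPA the change was -0.11 ± 0.095 (adjusted p = 0.532), called lower only with the GC and length trends removed and the block. In the lesioned striatum Cacnb1 was 1.28-fold higher after chronic than after acute L-DOPA (0.35 ± 0.11, adjusted p = 0.0345), a call kept only without replicate 3 of the acute or replicate 2 of the chronic libraries (adjusted p of 0.00543 to 0.127 over the 6 fits). The lesion effects differed by 0.43 ± 0.17 (adjusted p = 0.176), called with the replicate block (0.42, adjusted p = 0.00450). Cacnb2 was measured at 15.1, 14.4 and 14.9 CPM in the unlesioned and 11.6, 12.9 and 11 CPM in the lesioned striata after acute L-DOPA, and 20.8, 16.5 and 14.1 CPM and 17.8, 12.7 and 14.6 CPM in the same order after chronic L-DOPA. It fell by 19.8% after acute L-DOPA (-0.32 ± 0.068, adjusted p = 0.0100) and stood at -0.19 ± 0.15 (adjusted p = 0.478) after chronic L-DOPA. Cacnb3 was at -0.14 ± 0.074 (adjusted p = 0.260) and -0.29 ± 0.11 (adjusted p = 0.139), the chronic value called lower with the replicate block (-0.29, adjusted p = 0.00582). With GC and length trends removed both were called lower (-0.20, adjusted p = 0.0233 and -0.38, adjusted p = 0.0387). Cacnb4 was at -0.12 ± 0.058 (adjusted p = 0.205) and -0.063 ± 0.10 (adjusted p = 0.759).

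In the unlesioned striatum, where dopamine neurons were spared, 2 members were higher and 1 lower after chronic than after acute L-DOPA, of 27 tested. Cacna1g (0.53 ± 0.095, adjusted p = 0.0233) and Scn1a (0.30 ± 0.068, adjusted p = 0.0462) were the higher ones, and Scn2b (-0.40 ± 0.072, adjusted p = 0.0227) the lower one. Of these, Scn1a was not called with the replicate block (0.30, adjusted p = 0.0639). Its call was also lost with the length trend removed (0.23, adjusted p = 0.106) and with GC and length trends removed (0.23, adjusted p = 0.108). That of Cacna1g was lost in the fit over all 12 libraries (adjusted p = 0.0572). Over all genes, 1.07% were called higher and 2.00% lower, against 7.41% and 3.70% of the members, and the median log2 change was 0.071 for the members and -0.0042 for all genes. The count depended on single libraries. It was 0 without any of the 3 acute libraries or without replicate 3 of the chronic ones, 1 without replicate 1 of the chronic ones, and 8 without replicate 2, the library with the high choroid plexus sum.

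Among proteins that act on these channels, Gem and Rrad had larger fitted changes after acute L-DOPA than any channel gene called. Of 21 calcium channel partners in the table, 20 were tested, and 4 rose and 4 fell in the lesioned striatum after acute as after chronic L-DOPA, with medians of -0.12 and 0.0018. Over all genes, 8.16% were called higher and 7.16% lower after acute and 8.46% and 5.20% after chronic L-DOPA, with medians of 0.015 and -0.015. The RGK family of small GTPases (Gem, Rrad, Rem1, Rem2) binds calcium channel β subunits and lowers calcium current. Gem was measured at 0.553, 0.367 and 0.210 CPM in the unlesioned and 2.09, 1.79 and 1.34 CPM in the lesioned striata after acute L-DOPA, and 0.212, 0.342 and 0.249 CPM and 2.38, 2.34 and 1.74 CPM in the same order after chronic L-DOPA. Lesioned and unlesioned libraries did not overlap after either treatment, and the log2 changes were 2.18 ± 0.26 (adjusted p = 1.88e-04) and 3.00 ± 0.20 (adjusted p = 5.48e-06). Rrad was measured at 0.131, 0.101 and 0.120 CPM in the unlesioned and 0.561, 0.729 and 0.745 CPM in the lesioned striata after acute L-DOPA, and 0.101, 0.209 and 0.108 CPM and 0.251, 0.499 and 0.137 CPM in the same order after chronic L-DOPA. It rose after acute L-DOPA (2.51 ± 0.22, adjusted p = 1.34e-05) and stood at 1.09 ± 0.47 (adjusted p = 0.171) after chronic L-DOPA, with overlapping libraries, a value called with the replicate block (1.02, adjusted p = 0.0268). The lesion effects on Rrad differed by -1.41 ± 0.56 (adjusted p = 0.182), called with the replicate block (-1.47, adjusted p = 0.0219) and without replicate 2 of the chronic lesioned striata (adjusted p of 0.0175 to 0.405 over the 12 fits). Rem2 was measured at 13.4, 15.5 and 15.6 CPM in the unlesioned and 24.6, 29.1 and 27.0 CPM in the lesioned striata after acute L-DOPA, and 16.8, 14.0 and 15.7 CPM and 24.3, 19.3 and 27.5 CPM in the same order after chronic L-DOPA, with changes of 0.86 ± 0.077 (adjusted p = 1.89e-05) and 0.61 ± 0.13 (adjusted p = 0.0101). Rem1 was near the floor, at 0.0627, 0.0864 and 0.105 CPM in the unlesioned and 0.0379, 0.0231 and 0.0932 CPM in the lesioned striata after acute L-DOPA, and 0.0645, 0.0751 and 0.0739 CPM and 0.0569, 0.0462 and 0.0456 CPM in the same order after chronic L-DOPA, and passed no test.

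Stac2, an adaptor protein that binds L-type channels and slows their inactivation, was measured at 5.88, 5.20 and 5.73 CPM in the unlesioned and 6.66, 5.46 and 6.41 CPM in the lesioned striata after acute L-DOPA, and 7.03, 5.92 and 7.85 CPM and 19.4, 15.2 and 18.4 CPM in the same order after chronic L-DOPA. The 3 lesioned libraries after chronic L-DOPA lay above all others, with a log2 change of 1.35 ± 0.12 (adjusted p = 4.94e-05) against 0.15 ± 0.085 (adjusted p = 0.280) after acute L-DOPA. The lesion effects differed by 1.21 ± 0.16 (adjusted p = 4.49e-04). Cacng6, a γ subunit, was called higher after chronic L-DOPA (adjusted p = 0.00278) on 11, 18 and 24 counts in the lesioned and 3, 0 and 2 counts in the unlesioned libraries, but not by DESeq2. Every unlesioned library is at or below 3 counts, so no fold is given.

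**Figure D5:**
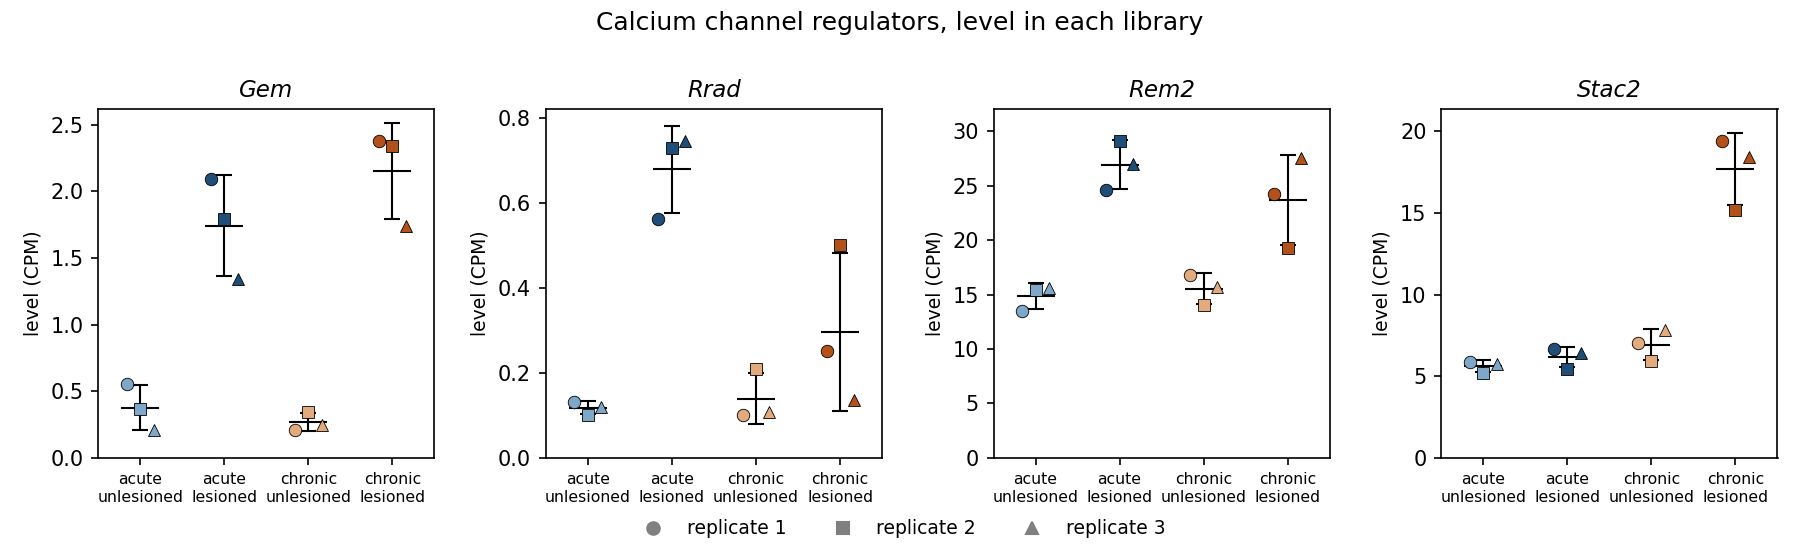
Level (CPM) of the RGK genes Gem, Rrad and Rem2 and of Stac2 in each library, by group, with the mean and standard deviation of 3 libraries. Gem and Rem2 are higher in the lesioned striata after both treatments, and Stac2 is higher in the lesioned striata after chronic L-DOPA.

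Of 14 sodium channel partners tested, 3 were called lower in the lesioned striatum after acute and 4 after chronic L-DOPA, with medians of -0.14 and -0.24. Over all genes 7.16% and 5.20% were called lower in these comparisons, with medians of 0.015 and -0.015. Scn2a1, the sodium channel pore that the symbol rule leaves out, was measured at 38.9, 37.7 and 40.0 CPM in the unlesioned and 30.0, 31.2 and 28.2 CPM in the lesioned striata after acute L-DOPA, and 46.4, 39.0 and 55.9 CPM and 36.2, 31 and 31.4 CPM in the same order after chronic L-DOPA, and fell in both comparisons (-0.38 ± 0.059, adjusted p = 0.00158, and -0.52 ± 0.13, adjusted p = 0.0226). The chronic call was lost without replicates 1 or 3 of the unlesioned or replicate 3 of the lesioned striata (adjusted p of 0.00336 to 0.0994 over the 6 fits), and with the cortical score as a covariate. The intracellular channel modulator Fgf14 (-0.34 ± 0.061, adjusted p = 0.00415) and the ubiquitin ligase Nedd4l (-0.31 ± 0.061, adjusted p = 0.00736) fell after acute L-DOPA. After chronic L-DOPA the related modulator Fgf11 (-0.69 ± 0.092, adjusted p = 7.50e-04) and Ank3, the ankyrin that holds channels at the axon initial segment (-0.44 ± 0.11, adjusted p = 0.0245), fell. That of Ank3 was lost without replicate 3 of the unlesioned or replicates 1 or 3 of the lesioned striata (adjusted p of 0.0219 to 0.0976 over the 6 fits), and with the cortical score.

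Of 28 genes of calcium handling tested, 1 rose and 10 fell after acute L-DOPA, and 2 rose and 5 fell after chronic L-DOPA, with medians of -0.059 and -0.11. The shares over all genes were 8.16% higher and 7.16% lower after acute and 8.46% and 5.20% after chronic L-DOPA, and the medians 0.015 and -0.015. The largest falls after acute L-DOPA were those of the ryanodine receptor Ryr1 (-0.67 ± 0.091, adjusted p = 5.90e-04), the kinase Camk4 (-0.49 ± 0.074, adjusted p = 0.00123) and the sodium-calcium exchanger Slc8a2 (-0.47 ± 0.069, adjusted p = 0.00105). After chronic L-DOPA they were those of Ryr1 (-1.20 ± 0.22, adjusted p = 0.00564), the inositol trisphosphate receptor Itpr1 (-0.70 ± 0.11, adjusted p = 0.00285) and Ryr2 (-0.69 ± 0.18, adjusted p = 0.0333), the release channels of the endoplasmic reticulum. The call of Ryr2 was lost without replicate 3 of the unlesioned or replicates 1 or 3 of the lesioned striata (adjusted p of 0.00452 to 0.109 over the 6 fits), and with the cortical score. Itpr1 was measured at 219, 207 and 222 CPM in the unlesioned and 257, 224 and 187 CPM in the lesioned striata after acute L-DOPA, and 198, 203 and 258 CPM and 145, 122 and 139.9 CPM in the same order after chronic L-DOPA. Its lesion effects differed by -0.74 ± 0.16 (adjusted p = 0.0160), a call lost without replicate 2 of the acute unlesioned striata (adjusted p of 0.00559 to 0.0514 over the 12 fits). Those on Ryr1 and Ryr2 differed by -0.53 ± 0.26 (adjusted p = 0.296) and -0.65 ± 0.23 (adjusted p = 0.125), both called with the replicate block (-0.54, adjusted p = 0.00406 and -0.61, adjusted p = 0.0272), that on Ryr2 also without replicate 2 of the chronic unlesioned striata (adjusted p of 0.0288 to 0.267 over the 12 fits).

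Exons of some members overlap those of a gene on the opposite strand in the GENCODE annotation of mm9: Cacna1d and Chdh by 518 bases, Cacna1h and Tpsg1 by 158, Cacnb4 and A430018G15Rik by 1170, Scn9a and Gm13629 by 180, Cacna1a and Gm16183 by 227, and Cacnb2 with Gm10849 by 253 and with Gm13269 by 236. Reads from both strands there cannot be told apart if the counting ignored strand. Scn1a, Scn3a, Scn7a and Scn9a lie together on chromosome 2. The pores are related in sequence, and how reads that fit several of them were counted is not stated.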

How the data were processed

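RNA from striatal punches of 12 libraries in 4 groups of 3 had been made into TruSeq libraries and sequenced on a Genome Analyzer II. The deposited values were raw read counts per transcript of the Genomatix list, which the authors obtained by alignment to mm9 (the submitters' processing notes also name DESeq). A read counts on each transcript it overlaps, so transcripts of a gene are not independent, and strand use and treatment of reads with several matches are not given in the sources used here. Transcript length, an annotation value (unit other) that the authors deposited beside the counts, gave levels per kilobase. Further tables hold the authors' fold changes and p-values by comparison, which were not used, and 48 columns of per-sample normalized expression or repeated counts were not used either. Transcripts with no symbol held 0.0485% of counts and were left out.

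Counts were fitted with edgeR 4.0.16 (R 4.3.3, limma 3.58.1) by the quasi-likelihood test, with TMM scaling and a low-count filter by group, over all transcripts of the 2 groups compared. The difference of the lesion effects used all 12 libraries. P-values were adjusted by Benjamini-Hochberg over all transcripts tested, and values under 0.05 were called. Where all genes are counted, each is represented by its transcript of highest mean level. Errors of fitted changes are standard errors, and other errors are SDs. DESeq2 1.42.0, other scalings and filters, covariates and the omission of each library were tried as alternatives, and trends with GC content were added after seeing the data. The fits were tested on simulated data. Sequences were read from the mm9 genome and exon overlaps from its GENCODE annotation. Tables were made with pandas 2.3.3 and numpy 2.4.6 under Python 3.11.15, and plots with matplotlib 3.10.9.

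Replicates differed by 5.04 to 17.95 times the chi-square per degree of freedom of counting noise, so none was a repeat of another. Libraries of equal number deviated together in both lesion comparisons, over transcripts of at least 1 CPM (correlations of 0.385 to 0.472 after acute and 0.159 to 0.572 after chronic L-DOPA, all over 0.1). Replicates of equal number across treatments did not (-0.148 to 0.233 and -0.068 to 0.141). Libraries of unequal number gave -0.295 to -0.127 in the acute and -0.515 to 0.153 in the chronic comparison. In the latter, lesioned replicate 1 with unlesioned replicate 3 (0.153) was close to the pair of replicates 3 (0.159). Across treatments, lesioned libraries of unequal number reached 0.341. A value over 0.1 alone does not mark a pair, and the chronic pairing of replicate 3 is weakly supported. The pairing therefore comes from the data, since the labels do not name the animals. The study describes the unlesioned side of a mouse as that animal's own control, whereas the design entry gives 12 mice, 3 per condition, by which libraries of equal number would come from different animals. Values with the block rest on the correlations above. The p-values measure the spread between these samples. The members, the partner and marker lists and the rule for named genes (members, up to 3 called genes per list and lesion comparison with the largest change, and the RGK genes) were chosen with earlier results of these data known. For 2 members the results are not reported here by name, and the counts and medians over members include them.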

Additional observations from a re-analysis of the deposited data

Results flagged for a closer look

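The lesion effect, lesioned against unlesioned striatum, differed between chronic and acute L-DOPA for 4 of 28 channel genes tested, by the interaction term of the edgeR fit over 12 libraries, where 3.53% of all genes were called positive and 1.56% negative. The log2 difference, chronic minus acute, was 0.95 for Cacna2d1, 0.70 for Cacna2d2 and 0.49 for Cacna2d3, and -0.55 for Scn4b. Cacna2d1 and Cacna2d2 kept the call in all settings tried. When single libraries were left out, Cacna2d3 kept it in 6 of 12 fits and Scn4b in 2 of 12.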

How the results depend on the processing

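Of 32 called results for single channel genes, 21 were called in every setting tried, and of 516 values of these results under alternatives 453 kept the call, 63 lost it and 0 changed sign. With the replicate block, the number of channel genes called went from 9 to 14 after acute L-DOPA, from 7 to 13 after chronic L-DOPA and from 4 to 7 for the difference of the lesion effects. The block together with removal of GC and length trends gave 17 after chronic L-DOPA. A fit over all 12 libraries gave 5 after acute L-DOPA, where Cacna1c, Cacnb2, Scn3a and Scn8a lost the call. Without single libraries the counts ran from 7 to 11 after acute and from 7 to 10 after chronic L-DOPA, from 7 to 14 within the lesioned striatum, from 0 to 8 within the unlesioned striatum and from 2 to 4 for the difference of the lesion effects. The count of 14 came without replicate 2 of the chronic lesioned striata. In the unlesioned comparison, 0 came without any acute library or without replicate 3 of the chronic ones, 1 without replicate 1 and 8 without replicate 2 of the chronic ones. The difference of the lesion effects had 2 calls without replicates 1 or 2 of the acute unlesioned, replicate 1 of the acute lesioned or replicate 1 of the chronic unlesioned striata. These fits hold fewer samples. Across treatments the block moved no other count of calls by over 1.5 times, and replicate numbers there do not pair the samples. Scn1a in the unlesioned striatum lost its call with it. DESeq2 gave 11, 8, 10, 4 and 5 calls in the acute, chronic, lesioned, unlesioned and difference comparisons, against 9, 7, 9, 3 and 4. Depth limits the sparse genes Scn4a, Scn7a, Scn10a, Scn11a, Cacna1f, Cacna1s and Cacna2d4. The causes of these shifts were not tested.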
